A study of Caenorhabditis elegans with 4 samples.

Results

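Isolated ZFP-1 peaks are the sites of the series-wide peak list that lay 10000 bp or more from the neighbouring peak on each side. The gap was counted as the bases between the end of 1 peak and the start of the next, and the first and last peak of each chromosome, 12 in all, were left out because they have a neighbour on 1 side only. The members were thus chosen by the peak positions of that list. The rule found 795 isolated peaks among 13878, or 5.73% of the list, and the 13071 other peaks were the comparison. The rule read only the positions in the series list, so the spacing and placement given here describe what was selected and carry no test. Support in the 2 replicate peak lists did not enter the rule, but the series holds no further ChIP libraries, so it is not independent evidence for the series list.

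The samples were ZFP-1 ChIP, replicates 1 and 2, and input DNA, replicates 1 and 2. All 4 came from wild-type N2 animals of mixed sex, males and hermaphrodites, grown at 20 degrees Celsius and taken whole at the L3 larval stage, so each value averages over all tissues. The ChIP antibody was an affinity-purified rabbit polyclonal that binds ZFP-1. Nothing in the labels tells whether the replicates were separate cultures, no peak list of the inputs was analysed here, and the depth of the libraries is unknown.

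ZFP-1 is a chromatin protein with zinc fingers, the worm relative of mammalian MLLT10, and works with the histone methyltransferase DOT-1.1 on transcribed chromatin. In C. elegans the middle of each autosome is rich in broadly expressed genes, while the arms hold more repeats and more silent chromatin. The X chromosome has no such strong contrast between middle and arms and is subject to dosage compensation in the soma. Peaks are named by position on WormBase WS220 because the gene table at hand is on another assembly, so no gene, exon or promoter was assigned.

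The isolated peaks stood in wide empty stretches. Their smaller gap had a median of 15162 bp (interquartile range 12009 to 22521 bp), against 666 bp for other peaks (249 to 1797 bp). The larger gap of the pair had a median of 31263 bp for isolated peaks and 4388 bp for other peaks. Gaps of 10000 bp or more numbered 2675 and took up 69.6% of the 100.2 Mb spanned by the 3 lists, so the typical base lay in a long gap while few peaks had one on each side. Just inside the threshold were IV from 5183759 to 5184024, III from 2159257 to 2159486 and IV from 16645924 to 16646248, with smaller gaps of 10003, 10012 and 10014 bp. Just outside it were I from 10116816 to 10117103, I from 8426423 to 8427386 and IV from 6441757 to 6442646, with 9993, 9984 and 9956 bp.

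The most remote isolated peak lay in the middle part of V, from 7580386 to 7580812, with 99182 bp free on its left and 100504 bp on its right. It was 427 bp wide with a series score of 57.7, and both replicates had a peak there, with scores of 93.53 in replicate 1 and 281.62 in replicate 2. The next 4 by smaller gap were IV from 16995493 to 16995728 (98000 bp), V from 2392196 to 2392369 (97235 bp), II from 2090724 to 2090906 (94667 bp) and V from 18346103 to 18346339 (93618 bp). These 4 were 174 to 237 bp wide, scored between 6.07 and 31.46, and met no peak in either replicate. Of the 5 most remote sites, replicate peaks were thus found at 1. Among all isolated peaks, 46.7% were met by neither replicate, against 25.3% of the whole list. The isolated peaks met by neither had a median score of 8.33 (range 1.41 to 51.29), and the 4 sites scored within that range. These 5 sites are too few to link remoteness to replicate support.

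Some isolated peaks stood in strings, as direct neighbours of each other. The rule favours this, since any neighbour of an isolated peak already has 1 gap of 10000 bp or more. The share that the spacing alone would give was not computed, so the counts below are no sign of clustering. Of the 795, 415 (52.2%, 95% interval 48.7 to 55.7%) had another isolated peak as a direct neighbour, and the remaining 380 stood between peaks that were not isolated. The strings were mostly short, with 106 pairs, 31 runs of 3 and 15 runs of 4. The longest run held 13 isolated peaks on the right arm of V, from 19755266 to 20250026, a stretch of 495 kb. Its members were 146 to 998 bp wide and scored 4.91 to 174.77. Replicate 1 had a peak at 4 of the 13 and replicate 2 at 7, with 2 sites shared by the replicates and 4 met by neither. The second longest run, of 8, also lay on the right arm of V, from 15248387 to 15483880.

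The isolated peaks were spread over all 6 chromosomes in an order unlike that of other peaks. V held 205 isolated peaks, 25.8% of them (22.8 to 29.0%), against 14.0% of other peaks, on 20.9% of the span. X was at the opposite end with 88 isolated peaks, 11.1% (8.97 to 13.5%), against 27.3% of other peaks, on 17.7% of the span. IV had 146, I had 130, III had 115 and II had 111. Per Mb, V carried 9.80 isolated peaks, the 4 remaining autosomes between 7.27 and 8.63, and X 4.97. The rule selects on spacing, and X has the densest peaks in the list and V the sparsest: long gaps covered 78.6% of V and 54.04% of X. II had fewer other peaks per Mb than I and III (123, 132 and 141) and also fewer isolated peaks per Mb (7.27, 8.63 and 8.35). In the same order, their shares of the isolated peaks had overlapping intervals, 11.6 to 16.6%, 13.8 to 19.1% and 12.1 to 17.1%. Counted per Mb of long-gap sequence, there were 12.5 isolated peaks on V and 9.19 on X, which as a whole chromosome stayed the lowest, with 12.7 on III the highest.

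Within the autosomes the isolated peaks lay mainly on the arms, taken as the outer parts on either side of the middle when each chromosome is cut into 3 parts of equal length. The arms spanned 55.0 Mb and the middles 27.5 Mb, with 9.45 and 6.80 isolated peaks per Mb. Counted per Mb of long-gap sequence, the arms and middles were closer, with 12.1 and 10.9. The middle held 187 of 707 autosomal isolated peaks, or 26.4% (23.2 to 29.9%), against 47.2% (46.2 to 48.2%) of other autosomal peaks. The share ran from 20.7% on II to 33.0% on III, and on each of the 5 autosomes it was lower than for other peaks. On X the middle held 38 of 88 isolated peaks, 43.2% (32.7 to 54.2%), against 33.6% (32.0 to 35.2%) of other peaks, so the 2 intervals overlapped. Per Mb of long-gap sequence, the middle of X had 12.5 isolated peaks and its arms 7.64, so the low value of X came from its arms. Isolated peaks made up 20.3% (16.6 to 24.5%) of the peaks on the right arm of V, 12.6% on the left arm of II, 11.1% on the left arm of V and 10.0% on the right arm of I. At the low end were the right arm of X with 1.88%, its left arm with 2.26% and the middle of II with 2.40%. Over the 18 parts, isolated peaks per Mb ran against other peaks per Mb (Spearman rho = -0.87 across parts, a description), which is the direction a rule on gaps favours.

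**Figure D1:**
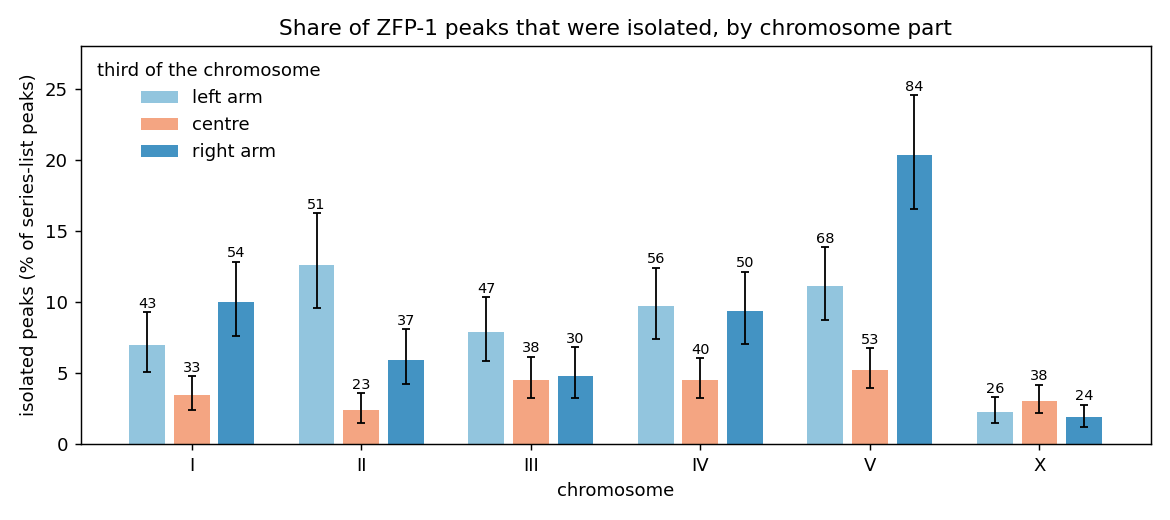
Share of series-list peaks that were isolated (y axis, %) in the left arm, centre and right arm of each chromosome (x axis), each of equal length. Error bars are exact 95% binomial intervals over peaks and the number above each bar counts its isolated peaks. The right arm of V stands highest at 20.3%, and all 3 parts of X are at 3.07% or lower.

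The isolated peaks were narrow, with a median score close to that of other peaks. Their median width was 271 bp (95% interval of the median 258 to 280 bp, range 146 to 2147 bp), against 337 bp (332 to 342 bp) for other peaks. The median score, the authors' value per peak with no stated scale, was 16.3 (15.1 to 19.1) for isolated peaks and 16.9 (16.3 to 17.5) for other peaks, so the intervals overlapped. Isolated peaks were fewer at the top end: 60 of the 1388 highest-scoring 10% of series-list peaks were isolated, which is 7.55% of isolated peaks, against 10.2% of other peaks. They were also fewer at the bottom end, where the lowest-scoring 20% of the list took in 15.2% of isolated peaks and 20.3% of other peaks.

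At equal score, isolated peaks had lower median widths. In the highest-scoring 20% of the list the median width was 474 bp (433 to 508 bp) for 144 isolated peaks and 663 bp (648 to 677 bp) for 2630 other peaks. In the next 20% down it was 331 bp (315 to 346 bp) and 428 bp (421 to 437 bp). In the lowest 20% the widths were 194 bp (176 to 204 bp) for isolated peaks and 198 bp (195 to 202 bp) for other peaks, with overlapping intervals. Width changed in steps with the gap rather than at 10000 bp. Within the highest-scoring 20%, the median width was 836 bp where the nearest peak was under 250 bp away, 631 bp at 500 to below 1000 bp, 543 bp at 2000 to below 5000 bp, 501 bp at 5000 to below 10000 bp, and 474 and 471 bp among isolated peaks at 10000 to below 20000 bp and at 20000 bp or more.

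**Figure D2:**
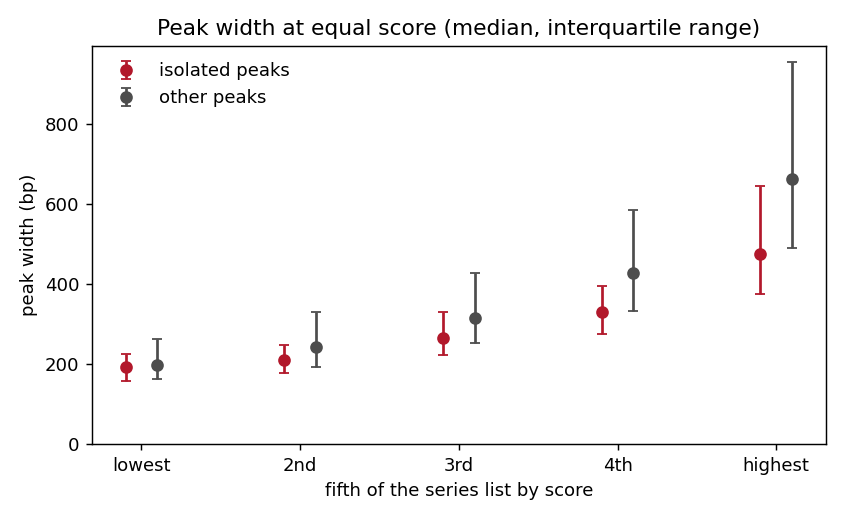
Peak width in bp (y axis; points are medians, bars interquartile ranges) for isolated and other peaks in 20% steps of the series list by score (x axis). In the highest-scoring 20% the medians are 474 bp for isolated and 663 bp for other peaks, and in the lowest-scoring 20% they are 194 and 198 bp.

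The widest isolated peak was on the right arm of IV, from 14032463 to 14034609, 2147 bp wide with a series score of 109.18. Both replicates placed a peak over it, 2509 bp wide in replicate 1 and 2654 bp wide in replicate 2, each with a score of 3100, the value at which many replicate peaks were tied. The other 4 widest were V from 9394245 to 9395800, V from 14350086 to 14351397, II from 12603324 to 12604624 and X from 16703597 to 16704788, at 1192 to 1556 bp, and each was met in both replicates.

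A smaller share of isolated than of other peaks was found again in the replicate lists. These lists are shorter than the series list, with 3559 peaks in replicate 1 and 6371 in replicate 2 against 13878. Their median peak widths were 1268 and 1200 bp, against 331 bp in the series list. The lowest score was 50.1 in replicate 1 and 50.04 in replicate 2, each on the scale of its own list. Replicate 1 had a peak over 175 of 795 isolated peaks, 22.0% (19.2 to 25.1%), against 40.4% (39.6 to 41.3%) of other peaks and 39.4% of the whole list. Replicate 2 had a peak over 408 isolated peaks, 51.3% (47.8 to 54.8%), against 75.2% (74.4 to 75.9%) of other peaks and 73.8% of the whole list. Both replicates met 159 isolated peaks, 20.0% (17.3 to 23.0%), against 39.6% of other peaks and 38.4% of the whole list. Neither met 371, 46.7% (43.2 to 50.2%), against 24.0% of other peaks and 25.3% of the whole list. A further 249 isolated peaks were met in replicate 2 alone and 16 in replicate 1 alone. The shares were lower for isolated peaks in each replicate, and no test was made because peaks of a list are not replicates.

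The replicate classes differed in score and width among the isolated peaks themselves. At the 159 met in both, the series score had a median of 92.4 (range 13.9 to 216.84) and the width one of 461 bp. At the 249 seen in replicate 2 alone, the medians were 27.5 for score and 325 bp for width, and at the 16 seen in replicate 1 alone they were 17.4 and 259 bp. At the 371 without a replicate peak, the medians were 8.33 and 206 bp. The highest score among these was 51.29, at I from 11755319 to 11755651 (333 bp), followed by 34.68 at I from 1913961 to 1914225 and 33.85 at V from 17905773 to 17906014. These 3 sites were picked out after their values were seen.

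Support was higher at high than at low scores in both sets and began lower for isolated peaks. Among other peaks it did not rise at each step: replicate 1 met 19.4% in the lowest-scoring 20% and 19.3% in the next 20%. In the lowest-scoring 40% of the list, 0 of 310 isolated peaks met both replicates, which allows a share of up to 0.968%, against 938 of 5237 other peaks (17.9%). Replicate 1 met 4 of these 310 isolated peaks (1.29%) and 19.4% of the other peaks. Replicate 2 met 25 of them (8.06%) and 50.8% of the other peaks. In the 20% of the list just below the highest-scoring 20%, replicate 1 met 23.8% (17.3 to 31.4%) of isolated and 49.9% of other peaks, and replicate 2 met 92.1% (86.5 to 95.8%) of isolated and 98.0% of other peaks. In the highest-scoring 20%, replicate 2 met all 144 isolated and all 2630 other peaks. Replicate 1 met 79.9% (72.4 to 86.1%) of isolated and 88.9% (87.6 to 90.04%) of other peaks there. With other peaks weighted to the score classes of the isolated peaks, 20.0% of isolated and 38.02% of other peaks met both replicates, a difference of -18.02 percentage points (isolated minus other).

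**Figure D3:**
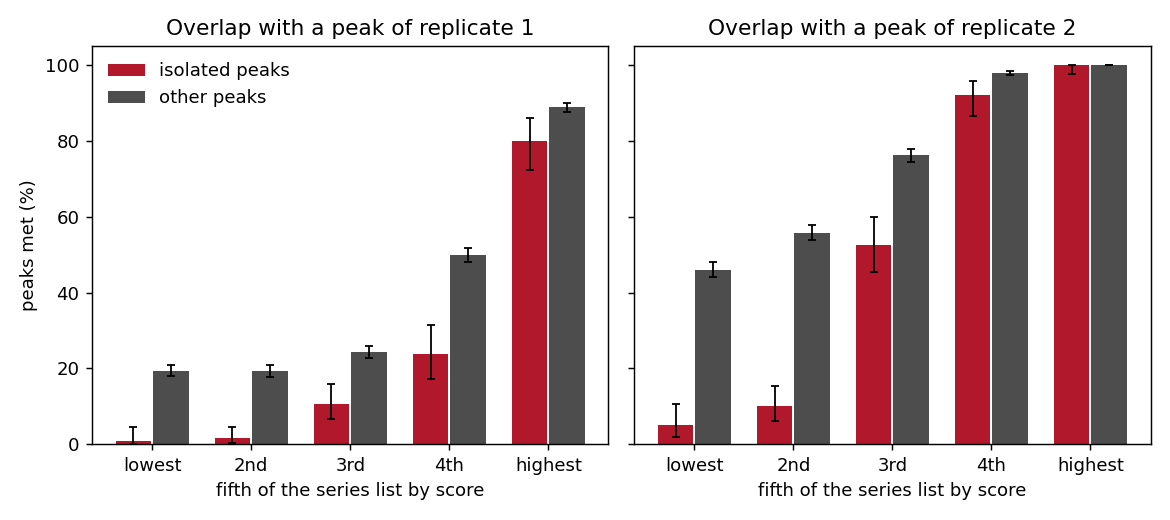
Share of peaks that overlapped a peak of replicate 1 (left panel) or replicate 2 (right panel), in % on the y axis, by 20% steps of the series list by score on the x axis. Red bars are isolated peaks, grey bars other peaks, and error bars exact 95% binomial intervals. In replicate 2 the sets meet at 100% in the highest class and stand apart in the lowest, at 4.96% for isolated and 46.0% for other peaks.

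Among low-scoring peaks, support was also low for other peaks that had no neighbour within 2000 bp. In the lowest-scoring 60% of the list, replicate 2 met 94.4% of peaks with a neighbour under 250 bp away, 51.5% at 500 to below 1000 bp, 27.98% at 2000 to below 5000 bp and 24.6% at 5000 to below 10000 bp. Isolated peaks of the same scores continued at 27.1% (22.6 to 32.1%) at 10000 to below 20000 bp and 19.9% (13.7 to 27.3%) at 20000 bp or more. Replicate 1 gave 53.1%, 10.5%, 3.48% and 3.19% over the first 4 of these distances and 5.08% and 4.11% over the isolated ranges. Median scores moved little across these classes, between 8.08 and 9.68. At 1000 to below 2000 bp the shares were 38.4% in replicate 2 and 8.17% in replicate 1, so most of the fall lay at shorter gaps and a smaller part between there and 2000 to below 5000 bp. In the 20% of the list below the highest-scoring 20%, replicate 1 met 38.2% at 1000 to below 2000 bp, 34.6% at 2000 to below 5000 bp and 27.0% at 5000 to below 10000 bp, and 22.9% (15.0 to 32.6%) and 25.5% (14.7 to 39.0%) over the isolated ranges. Replicate 2 met 96.9%, 96.9% and 83.6% (71.2 to 92.2%) of that class at 2000 to below 5000 bp, 10000 to below 20000 bp and 20000 bp or more. In the highest-scoring 20%, replicate 1 met 80.2% at 2000 to below 5000 bp and 77.7% at 5000 to below 10000 bp, and 81.4% and 76.6% over the isolated ranges. What part replicate peak width has in these shares was not tested. Set against other peaks with smaller gaps of 2000 to below 10000 bp, a choice made after seeing the data, the difference at equal score, isolated minus other, was -1.996 percentage points: the share met in both was 20.0% for isolated and 22.0% for such other peaks.

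**Figure D4:**
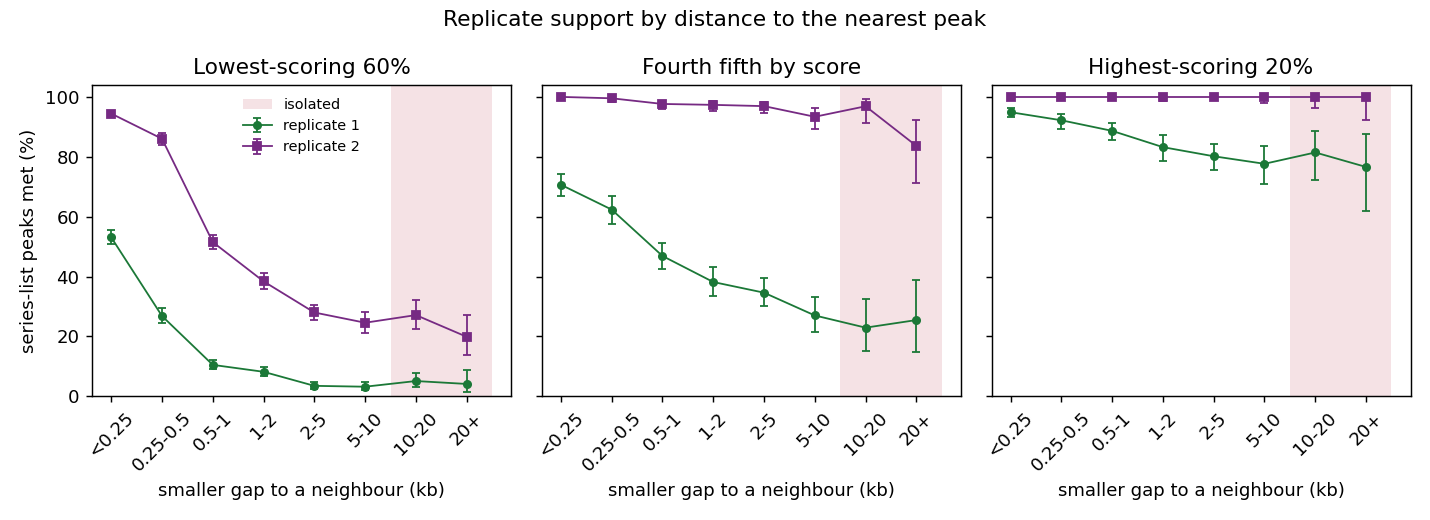
Share of series-list peaks met by replicate 1 (green circles) and replicate 2 (purple squares), in % on the y axis, by the smaller gap to a neighbouring peak in kb on the x axis, in 3 score classes. Error bars are exact 95% binomial intervals and the shaded range holds the isolated peaks. In the lowest-scoring 60% the replicate 2 share is 94.4% at the shortest gaps and between 19.9% and 27.98% from 2 kb on.

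The rule fixes how many series-list peaks a replicate peak over an isolated peak can cover. The 175 such peaks of replicate 1 were at most 4238 bp wide and the 408 of replicate 2 at most 2832 bp, short of the 10000 bp to a neighbour, so each covered 1. Among other peaks that were met, 41.0% had a replicate 1 peak to themselves and 39.5% a replicate 2 peak, and the rest shared it with further series-list peaks. Counted only where a replicate peak covered 1 series-list peak, support at equal score was higher for isolated peaks, 20.0% against 11.3% for other peaks. This count can only lose sites where peaks are crowded, so it sets a lower end for other peaks.

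Where a replicate peak covered a single series-list peak, replicate scores and midpoint distances at isolated and other sites lay close together. Width relative to the series-list peak did not. In replicate 1 the median ratio of replicate to series-list width was 2.23 (2.15 to 2.42) at isolated and 1.87 (1.84 to 1.90) at other sites. Replicate 2 had 2.69 (2.66 to 2.77) at isolated and 2.55 (2.53 to 2.58) at other sites. In replicate 1 the median peak width was 1132 bp (1055 to 1201 bp) over isolated peaks and 1150 bp (1135 to 1163 bp) over other peaks, and the median score was 178 (139 to 209) over isolated peaks and 157 (146 to 169) over other peaks. In replicate 2 the median peak width was 1008 bp (987 to 1032 bp) over isolated peaks and 1057 bp (1050 to 1066 bp) over other peaks, with intervals that did not overlap. The median replicate 2 score was 219 (181 to 271) over isolated peaks and 223 (211 to 238) over other peaks. Midpoints of the replicate 1 and series-list peaks were a median of 75 bp apart at isolated sites and 71.0 bp at other sites. For replicate 2 the distances were 30.8 bp at isolated sites and 31.0 bp at other sites.

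Most isolated sites that a replicate held were isolated there too. The count was made once per series-list peak, so a replicate peak over several other peaks counted several times. Of the isolated peaks met in replicate 1, 171 of 175 (97.7%, 94.3 to 99.4%) lay under a replicate 1 peak that was isolated in its own list. That means gaps of 10000 bp or more on both sides within the replicate 1 list. Among other peaks met in replicate 1 the share was 24.7%. In replicate 2 it was 364 of 408 isolated peaks (89.2%, 85.8 to 92.1%), against 9.76% of other peaks met there. All replicate peaks but 9 in replicate 1 and 11 in replicate 2 lie on a series-list peak, so this follows largely from the rule. Of the 159 isolated peaks met in both replicates, 143 (89.9%, 84.2 to 94.1%) were isolated in all 3 lists. The reverse did not hold, in lists that are shorter than the series list. Applied to the 3559 peaks of replicate 1 alone, the rule found 1046 isolated peaks, of which 171 (16.3%) lay on an isolated series-list peak. Among the 6371 peaks of replicate 2 it found 940, of which 364 (38.7%) did.

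The 159 isolated peaks met in both replicates ranked around the middle of the replicate 1 list and higher in replicate 2. These sites were picked for being met in both lists, so the contrast is not one of isolated peaks as a whole. Over all isolated peaks met in a replicate, the median score percentile was 45.8 for the 175 in replicate 1 and 39.6 for the 408 in replicate 2. At the 159 sites the replicate 1 peaks had a median score percentile of 48.5 within that list (interquartile range 26.1 to 67.4) and the replicate 2 peaks one of 68.7 (47.6 to 80.9). Replicate 1 placed 5 of the 159 in its highest-scoring 10% and replicate 2 placed 10 there. The share of other peaks met in both that ranked there is not given here. Percentiles are within lists of unlike length, 3559 peaks in replicate 1 and 6371 in replicate 2, so the 2 are not on an equal footing. The scores of the replicates at these sites ranked alike to a degree (Spearman rho = 0.68 across 159 sites, a description). Midpoints of the 2 replicate peaks lay a median of 61.0 bp apart.

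**Figure D5:**
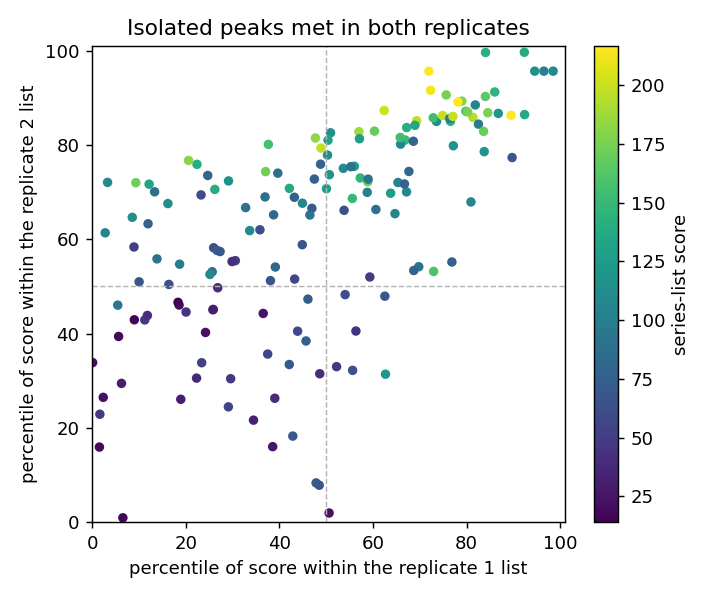
Percentile of the peak score within the replicate 1 list (x axis) and the replicate 2 list (y axis) for the 159 isolated peaks met in both, coloured by series-list score; dashed lines mark the middle of each list. The points spread across the replicate 1 axis and sit mostly high on the replicate 2 axis, with 76 of 159 above the middle in replicate 1 and 116 in replicate 2.

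The 12 isolated peaks with the highest series scores among those met in both ran from 182.5 to 216.84 and from 474 to 1301 bp in width. They numbered 3 each on I, II and V, 2 on III, 1 on X and 0 on IV, and 10 of the 12 lay on arms. Arms are 2 of the 3 equal parts of a chromosome. Of the 795 isolated peaks, 520 lay on autosome arms and 50 on X arms. Of the 159 met in both replicates, 100 and 17 did. The first was on the right arm of II, from 12603324 to 12604624, with 83483 bp free on its left and 40073 bp on its right. Its score was 515.57 in replicate 1 and 3100 in replicate 2. It was also among the 5 widest.

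The second lay on the right arm of I, from 10894888 to 10895392, with a series score of 216.46. It had the highest replicate 1 score of the 12, 1419.24, and a replicate 2 score of 2113.58. The leading isolated peak of V was from 18808425 to 18809114 on its right arm, at 215.34, with 688.51 in replicate 1 and 2528.02 in replicate 2. That of X was near its left end, from 787841 to 788380, at 201.17, with 341.66 in replicate 1 and 2251.4 in replicate 2. That of III was on the left arm, from 3733848 to 3734579, at 198.96, with 586.86 and 2108.06 in replicates 1 and 2. The order of these sites by series score differed from their order in either replicate.

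IV led with a lower score. Its first isolated peak lay on the right arm from 16845407 to 16845723, 317 bp wide with a series score of 159.83, and had 181412 bp free on its left. Its replicate scores were 540.99 in replicate 1 and 397.33 in replicate 2. None of the 12 reached the highest-scoring 10% of replicate 1, where their scores ran from 188.66 to 1419.24, and 2 reached that of replicate 2. The remaining 7 were V from 11374986 to 11375902, V from 14772817 to 14773805, I from 6034442 to 6035020, I from 13475290 to 13475836, III from 220307 to 220785, II from 848463 to 848955 and II from 900780 to 901253.

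Support of isolated peaks varied between chromosomes by less than between score classes. Replicate 1 met between 18.02% on II and 28.4% on X, with intervals that overlapped throughout. Replicate 2 met between 37.7% (29.8 to 46.1%) on IV and 60.8% (51.8 to 69.2%) on I, and these 2 intervals did not overlap. IV also had the lowest median score of isolated peaks, 13.4, against 19.7 on I, whereas other peaks on IV and I had 19.7 and 20.3. The middle of IV had the lowest shares of that chromosome's parts, with 3 of 40 isolated peaks met in replicate 1, 11 in replicate 2 and 1 in both, at a median score of 9.90. In replicate 1 its interval (1.57 to 20.4%) overlapped those of the left (11.6 to 34.4%) and right arm (14.6 to 40.3%). Those of replicate 2 also overlapped. For both replicates together, the middle (0.06 to 13.2%) and right arm (14.6 to 40.3%) did not. No other chromosome was split into 3 parts for support. X had a median score of isolated peaks similar to that of IV as a whole, 13.6, but 53.4% of its isolated peaks were met in replicate 2. The part of the scores in this was not tested. Arms and middles of the autosomes were close, with 51.2% of 520 isolated peaks on arms and 50.8% of 187 in the middles met in replicate 2, and 21.3% and 20.9% in replicate 1.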

How the data were processed

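ZFP-1 ChIP-seq was analysed from 3 peak lists in GFF3 format, 1 for each ChIP replicate and 1 for the whole series. The authors deposited a start, an end and a score per peak, whose scale is not given in the sources used here. Per the file headers the coordinates follow WormBase WS220, and the caller is written as MACS (replicates) and MACS v2 (series). The submitters' processing notes name BWA and ce10. Whether the series list pools the replicates, and how input was used, is not given. No input list was used, and no depth is known.

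Gaps, overlaps of at least 1 bp, shares and medians were computed in Python 3.11.15 (scipy 1.17.1, pandas 2.3.3, numpy 2.4.6). Scores were used within 1 list only. Intervals are 95%: exact Clopper-Pearson for shares, binomial order statistics for medians. They cover counting error over peaks, treat neighbours as independent, and say nothing of animals or libraries. The limit for 0 peaks is 3 counts. Chromosome length was the last base of any peak. Score classes are 20% steps of the series list. No test was run, since the rule used the series list. Code was tested on simulated lists. The rule for named peaks was the 12 best-scoring isolated peaks met in both replicates, the best of each chromosome, the 5 largest smaller gaps, the 5 widest, and 3 on each side of the threshold. Members, classes and comparisons were chosen with earlier results of these data known. Alternatives covered gap, overlap, score, list, centre and replicates.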

Additional observations from a re-analysis of the deposited data

How the results depend on the processing

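Over 7 results and 42 alternatives, 18 kept a count within 1.5 times, or a share, median or difference within the main 95% interval. Another 23 went beyond that and 1 turned its sign. For the difference at equal score, the interval (-20.8 to -15.1 points) covers the isolated share alone and takes that of other peaks as exact. The 795 isolated peaks became 1827 with a minimum gap of 5000 bp and 248 with 20000 bp. The X share of 11.1% became 15.2% and 7.66% at these gaps, 19.2% in the replicate 1 list and 16.3% among the better-scoring 50% of series-list peaks. It stayed below that of other peaks in each. The autosomal middle share of 26.4% became 33.7% and 13.5% at 5000 and 20000 bp, against 47.9% and 46.5% of other peaks. For the middle 50% of the span it was 42.1% against 68.1%, and among better-scoring peaks 33.1% against 45.4%. In the replicate lists the contrast was smaller. Replicate 1 gave 40.9% (37.6 to 44.3%) against 44.2%, which lies within that interval. Replicate 2 gave 36.01% (32.7 to 39.4%) against 43.4%.

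The share met in both, 20.0%, became 39.7% for better-scoring isolated peaks and 8.68% with better-scoring replicate peaks only. Leaving out 1 replicate gave 22.0% to 51.3%. The difference at equal score, -18.02 points, became -10.3 with width matched too, -25.2 with overlap within 500 bp, and -23.9 to -16.9 with 1 replicate left out. It became -1.996 against other peaks with gaps of 2000 to below 10000 bp and 8.71 where only replicate peaks covering 1 series-list peak counted; these last 2 alternatives were added after seeing the data, and in the last one crowded peaks lose support by construction. The median width of 271 bp became 255 bp at 20000 bp and 461 bp for peaks met in both, and the median score of 16.3 became 19.7 and 92.4. No paired analysis was possible because only the ChIP group has peak lists here.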
